A study of Mus musculus with 2 samples.

Results

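Lcn2, Slpi, Wfdc2, Reg3b and Reg3g are 5 genes of secreted epithelial defence, and their transcripts were followed in dysplastic mouse stomach organoids with and without the drug pyrvinium. They were chosen by symbol, with their levels in these libraries known, and are 5 of the 32227 genes counted. Meta4 organoids, a dysplastic line from the stomach corpus (the main body of the stomach), were kept for 1 day with the solvent DMSO or with pyrvinium, an anthelmintic drug. Both groups share the genotype, with 1 copy of a Mist1-CreERT2 transgene, a tamoxifen-inducible Cre recombinase driven in cells that express Mist1, and both were labelled as induced to dysplasia. The design text names the question as which subpopulations respond to the drug before the organoids lose their shape. Each treatment gave 1 single-cell RNA library of 1 organoid line, so no test was made, no difference has a replicate check, and the 95% intervals cover counting error only.

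Lcn2 encodes lipocalin-2, which binds bacterial siderophores and so withholds iron from microbes. Slpi and Wfdc2 encode small secreted proteins with whey acidic protein (WAP) domains. SLPI inhibits neutrophil elastase and other serine proteases, and Wfdc2 encodes HE4, a secreted epithelial protein also used as a tumour marker in human medicine. Reg3b and Reg3g encode C-type lectins that bind bacterial cell walls. In gut epithelium the Reg3 genes are known to be induced through interleukin-22 and STAT3, and Lcn2 through interleukin-17, NF-kappaB with its cofactor IkappaB-zeta (Nfkbiz), and C/EBP factors.

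The 250 bases before the start site are shown for 4 of the genes, because Reg3b and Reg3g are related genes of the same family with different counts here, and Lcn2 and Slpi, both higher with pyrvinium, held motif matches. All 5 genes were matched by symbol in the RefSeq promoter table, which uses the mouse build GRCm38.p6, whereas the counts were made on GRCm39. All sequences run 5′ to 3′ on the gene's strand. Capitals in Lcn2 (chr2:32387740-32387989, minus strand) and Slpi (chr2:164356508-164356757, minus strand) mark motif matches. Capitals in Reg3b (chr6:78370635-78370884, plus strand) and Reg3g (chr6:78468875-78469124, minus strand) mark runs of at least 10 bases that the pair shares.
Lcn2: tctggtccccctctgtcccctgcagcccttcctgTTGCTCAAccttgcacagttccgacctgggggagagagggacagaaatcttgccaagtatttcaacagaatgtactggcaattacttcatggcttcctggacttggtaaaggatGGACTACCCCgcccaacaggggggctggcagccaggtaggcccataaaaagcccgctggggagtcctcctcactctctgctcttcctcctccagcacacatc
Slpi: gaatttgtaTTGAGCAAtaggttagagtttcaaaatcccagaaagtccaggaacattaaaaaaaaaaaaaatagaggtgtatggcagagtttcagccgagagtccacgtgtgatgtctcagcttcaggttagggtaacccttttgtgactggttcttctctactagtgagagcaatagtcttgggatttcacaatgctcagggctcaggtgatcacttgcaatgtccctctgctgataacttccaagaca
Reg3b: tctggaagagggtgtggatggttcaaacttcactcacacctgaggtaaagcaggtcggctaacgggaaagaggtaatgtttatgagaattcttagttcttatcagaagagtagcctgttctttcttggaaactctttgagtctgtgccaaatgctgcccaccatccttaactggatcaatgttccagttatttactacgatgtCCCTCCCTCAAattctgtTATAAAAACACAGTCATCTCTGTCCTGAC
Reg3g: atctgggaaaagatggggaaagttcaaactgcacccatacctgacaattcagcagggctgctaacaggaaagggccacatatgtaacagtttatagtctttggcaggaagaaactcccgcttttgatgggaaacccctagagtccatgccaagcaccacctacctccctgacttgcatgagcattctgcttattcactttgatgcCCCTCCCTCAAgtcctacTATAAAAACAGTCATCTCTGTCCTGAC

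The Reg3b and Reg3g promoters were identical at 173 of 253 aligned positions (68.4%), with a longest shared run of 20 bases next to the start site. The other pairs of the 5 promoters were identical at 43.0% to 48.6% of aligned positions, with no shared run over 9 bases. The longest coding transcripts of Reg3b and Reg3g in GENCODE M21 were 67.7% identical with a shared run of up to 35 bases. A read that lies wholly in a shared run would match both genes, and whether this occurred was not tested. How the submitters treated such reads is not given in the sources used here. Motifs were searched on both strands of each 250-base window, and a match describes letters only. The NF-kappaB letters GGGNNNNTCC matched in Lcn2 at bases -102 to -93 from the start site, and are found in 16.5% of 32851 RefSeq windows. The C/EBP letters TTGCNNAA matched in Lcn2 at -216 to -209 and in Slpi at -241 to -234, and are found in 9.56% of windows. The STAT letters TTCNNNGAA (7.02% of windows) matched in Reg3b alone, at -129 to -121, and not in the Reg3g window. The letters TGATGNAA (ATF4 with C/EBP, 3.45% of windows) and TGANTCA (AP-1, 6.75% of windows) matched in none of the 5 windows, and the windows of Wfdc2 and Reg3g held none of the 5 motifs. Matches of different motifs did not overlap.

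Barcodes were kept as cells from 9320 counts in the DMSO library (1602 cells, median 18592.5 counts) and from 13101 counts in the pyrvinium library (854 cells, median 31517 counts). Summed over cells, the libraries held 39980497 and 37046673 counts, and levels are given as counts per 1000000 (CPM) of these sums. No cell barcode was shared between the libraries. Mitochondrially encoded genes took 2.57% of the DMSO and 1.63% of the pyrvinium sum, and the part of this difference in the results was not tested. The cells carried epithelial transcripts in both libraries: all 8 epithelial markers were counted, at 9405 CPM in sum with DMSO and 6465 CPM with pyrvinium. By the rule given below, 2 of the 8 were called lower with pyrvinium, beside 15.5% of all genes measured. Neutrophils and macrophages are also known to make Lcn2 and Slpi. The 12 neutrophil markers summed to 1.05 and 1.13 CPM, with S100a8, Elane and Retnlg at 0 in both libraries. The 9 macrophage markers summed to 75.3 and 47.8 CPM, almost all from Cd14 (53.6 and 18.4 CPM) and Cd68 (21.0 and 28.3 CPM), which epithelial cells can also express, while Lyz2, C1qa and C1qb were at 0 in both. The 7 lymphocyte markers summed to 0.400 and 0.621 CPM and the 7 fibroblast markers to 1.35 and 0.837 CPM.

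Some markers of gastric and gut lineages were also called higher or lower, by the rule given in the next paragraph. That rule called 7.57% of all genes measured higher with pyrvinium and 15.5% lower. Of the chief cell markers, 3 had enough counts for a comparison and all 3 were lower with pyrvinium, with the 5 markers at 13.3 CPM in sum with DMSO and 5.53 CPM with pyrvinium. Of 8 neck cell markers, 4 were lower and 1, Wfdc2 itself, was higher (6844 and 6171 CPM), among them Clu at 3493 and 1859.6 CPM and Agr2 at 517 and 182 CPM. Of 5 measured goblet cell markers, 3 were lower (33.1 and 17.5 CPM), of 4 surface mucous markers 2 were lower (495 and 544 CPM), and of 4 squamous markers 2 were lower (10313 and 6210.3 CPM). The 2 parietal (87.6 and 82.8 CPM) and 4 tuft cell markers (105 and 128 CPM) with enough counts were not called. Of 4 endothelial markers 1 was higher and 1 lower (44.3 and 59.3 CPM). Several of these sums rest on few genes. Kcnq1 gave 85.4 and 80.9 CPM of the parietal sum, and Cdh5 41.7 and 56.6 CPM of the endothelial sum. Sprr2a1 gave 10273 and 6184 CPM of the squamous sum, and Pou2f3 and Avil most of the tuft sum. The parietal marker Atp4b had 2 and 0 counts, the squamous marker Krt5 1 and 3, and the endothelial marker Cldn5 0 in both. The sums alone do not show that these cell types were present. Among endocrine markers only Ghrl, the ghrelin gene, had enough counts, with 3 counts with DMSO and 86 with pyrvinium. The part of these lineages in the levels of the 5 genes was not tested, and fewer cells of a type and less RNA per cell cannot be told apart in summed counts.

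Lcn2, Slpi and Wfdc2 were higher in the pyrvinium library, Reg3g was lower, and Reg3b was near the limit of detection in both. A gene was called higher or lower when it differed at least 1.5-fold and its counting interval lay wholly beyond equality, among genes with at least 20 counts in the sums together. By this rule 7.57% of the 15586 genes measured were higher with pyrvinium and 15.5% were lower, and the median log2 ratio over them was -0.08. Of the 5 genes, 3 were called higher and 1 lower, and Reg3b had too few counts to enter. Because the genes were chosen on this contrast, these calls describe the choice and are not read against the background.

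Lcn2 (ENSMUSG00000026822) was at 3.60 CPM in the DMSO library (interval 3.04 to 4.24, 144 counts) and 13.6 CPM in the pyrvinium library (12.4 to 14.8, 502 counts). The pyrvinium level lay above the DMSO interval, with a log2 ratio of 1.91 (1.64 to 2.19), or 3.76-fold. When both libraries were limited to one range of counts per cell, 13101 to 46187, Lcn2 was 7.41-fold higher. That range leaves out the DMSO cell with the most Lcn2, which held 43 of the 144 counts and had 12605 counts in all. Without the top cell of each library, and with no limit on the range, Lcn2 was 4.95-fold higher.

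Slpi (ENSMUSG00000017002) was at 4.45 CPM with DMSO (3.82 to 5.16, 178 counts) and 21.6 CPM with pyrvinium (20.1 to 23.1, 799 counts). Its log2 ratio was 2.28 (2.04 to 2.52), or 4.84-fold, an interval that overlapped that of Lcn2.

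Wfdc2 (ENSMUSG00000017723) was at 2339 CPM with DMSO (2324 to 2354, 93499 counts) and 3752 CPM with pyrvinium (3733 to 3772, 139015 counts). The counts were many and the difference small, with a log2 ratio of 0.68 (0.67 to 0.69) or 1.60-fold, close to the limit of 1.5-fold used for a call. With equal weights for the clusters described below, Wfdc2 was 1.46-fold higher and no longer called.

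Reg3g (ENSMUSG00000030017) was the gene of the 5 called lower, at 46.8 CPM with DMSO (44.7 to 48.9, 1870 counts) and 14.4 CPM with pyrvinium (13.2 to 15.6, 532 counts). The log2 ratio was -1.70 (-1.85 to -1.56), or 3.26-fold lower. Reg3b (ENSMUSG00000071356), the other Reg3 gene, had 4 counts in 3 DMSO cells, 0.10 CPM (0.0273 to 0.256), and 0 counts with pyrvinium (exact interval up to 0.0996 CPM). No fold is given for Reg3b, since its DMSO count is at the size of the floor of 3 counts.

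**Figure D1:**
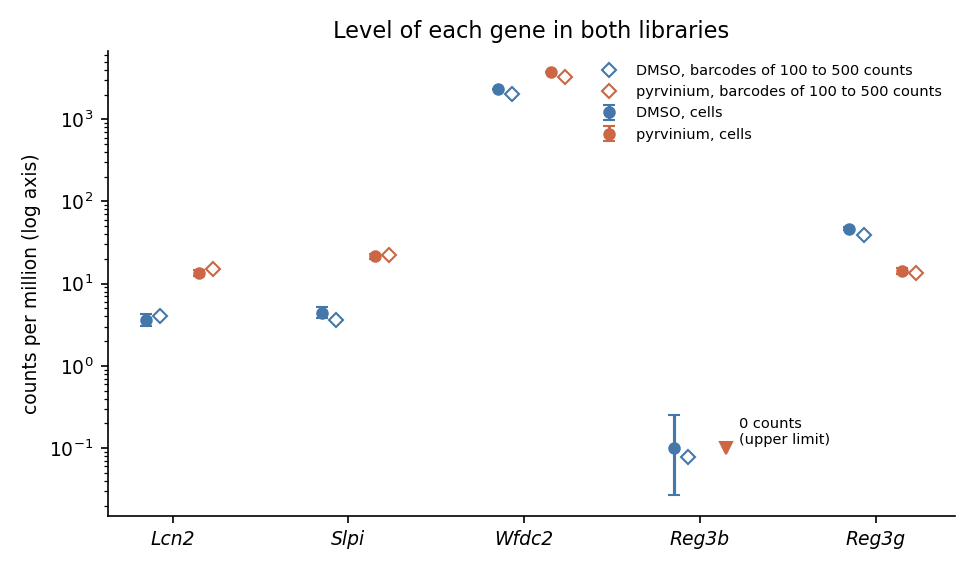
CPM on a log axis for each of the 5 genes. Filled circles are summed cells of the DMSO and pyrvinium libraries with 95% counting intervals, open diamonds are barcodes with 100 to 500 counts, and the triangle is the upper end of the interval for Reg3b with 0 counts. Lcn2, Slpi and Wfdc2 are higher with pyrvinium and Reg3g is lower, in cells and in the low-count barcodes alike.

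The same directions stood in barcodes with 100 to 500 counts, which hold mostly free RNA or debris. Lcn2 was at 4.06 CPM there with DMSO and 15.2 CPM with pyrvinium, Slpi at 3.67 and 22.4 CPM. Wfdc2 was at 2014 and 3229 CPM, and Reg3g at 38.9 and 13.4 CPM. Free RNA of these genes was therefore present at about the level in cells. A single count of Lcn2, Slpi or Reg3g in a cell cannot be told apart from free RNA, whereas several counts in 1 cell are a measurement of that barcode. For Wfdc2, at 2014 and 3229 CPM in the low-count barcodes, several counts in a cell could also be free RNA.

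Because the pyrvinium cells were deeper, shares of cells were taken from a random draw of 5000 counts out of every cell (thinning). Lcn2 was counted in 0.936% of DMSO cells (15 cells, interval 0.525% to 1.54%) and 4.57% of pyrvinium cells (39 cells, 3.27% to 6.19%). Slpi was counted in 1.56% of DMSO cells (25 cells, 1.01% to 2.30%) and 6.91% of pyrvinium cells (59 cells, 5.30% to 8.82%). For both genes the intervals did not overlap. Without thinning, the shares were 2.0% and 12.3% for Lcn2 and 4.87% and 22.6% for Slpi.

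Reg3g went the other way, in 11.4% of thinned DMSO cells (183 cells, 9.91% to 13.1%) and 4.33% of pyrvinium cells (37 cells, 3.07% to 5.92%). Without thinning its shares were 23.4% and 17.7%, nearer to each other than after thinning. Wfdc2 was counted in 98.1% of thinned DMSO cells and 100% of pyrvinium cells, so its difference lay in the counts per cell. A thinned DMSO cell held a median of 10 Wfdc2 counts (quartiles 6 and 15), and a thinned pyrvinium cell 17 (quartiles 12 and 23). Reg3b was counted in 2 thinned DMSO cells (0.125%, 0.0151% to 0.450%) and in 0 of 854 pyrvinium cells, which allows a share of up to 0.431% by the exact interval.

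**Figure D2:**
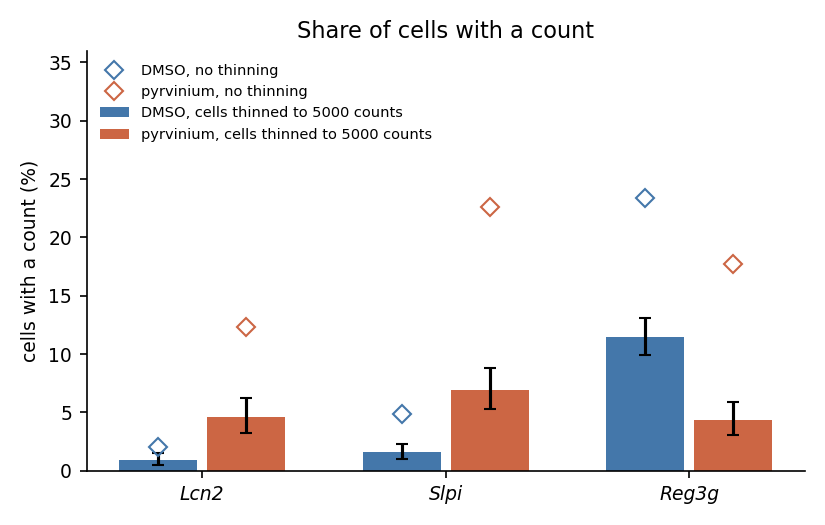
Percent of cells with at least 1 count of Lcn2, Slpi or Reg3g in the DMSO and pyrvinium libraries. Bars are cells thinned to 5000 counts with exact 95% binomial intervals, and diamonds are the shares without thinning. Lcn2 and Slpi shares are higher with pyrvinium and Reg3g shares are lower, with and without thinning.

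If the free-RNA profile made up 10% of a thinned cell, it alone would place a count of Lcn2 in 0.203% of DMSO and 0.758% of pyrvinium cells, below the shares counted. For Slpi the same figure was 0.183% and 1.11%, and for Reg3g 1.92% and 0.667%. For Wfdc2 it was 63.5% and 80.1%, so the share of cells with a Wfdc2 count does not measure how many cells express it. The true share of free RNA per cell was not measured. In the cluster with the lowest share, Lcn2 was counted in 0 of 119 cells with DMSO (exact interval up to 3.05%) and 0 of 50 cells with pyrvinium (up to 7.11%). The lowest cluster shares were 0.457% with DMSO and 2.08% with pyrvinium for Slpi, and 2.52% and 3.54% for Reg3g. For Reg3g with pyrvinium, the lowest cluster share was close to the share over all cells, 4.33%.

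A few cells carried most Lcn2 counts of the DMSO library. Only 32 of 1602 DMSO cells held any Lcn2, and the 3 highest held 43, 17 and 13 of the 144 counts, so that 3 cells held 50% of the transcript. The top 1% of cells (17 cells) held 89.6% of it. In the pyrvinium library 105 of 854 cells held Lcn2, the highest cell held 39 counts (7.77% of the total), and 11 cells were needed for 50%. Lcn2 was thus spread over more cells with pyrvinium, though these counts were not thinned and the pyrvinium cells were deeper.

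Slpi had a like pattern. In the DMSO library 78 cells held Slpi, with 53 counts (29.8%) in 1 cell and 21 in the next, and 6 cells held 50%. In the pyrvinium library 193 cells held it, with 80 and 66 counts in the 2 highest cells, and 16 cells held 50%. The mean was 0.0287 Slpi counts per thinned DMSO cell and 0.109 per thinned pyrvinium cell. Spread evenly at these means, Slpi would have been seen in 2.83% and 10.3% of thinned cells, above the 1.56% and 6.91% found.

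Reg3g was less concentrated: 375 DMSO cells held it, 38 cells held 50%, and the top 1% held 31.7%. With pyrvinium 151 cells held Reg3g, 23 cells held 50% and the top 1% held 28.4%. The strongest Reg3g cells were those of the DMSO library, where 21 thinned cells (1.31%) had at least 5 counts and the highest had 11. No thinned pyrvinium cell had 5, and the highest had 3. Wfdc2 was the most even, with 50% of its counts in 17.9% of DMSO and 18.5% of pyrvinium cells.

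**Figure D3:**
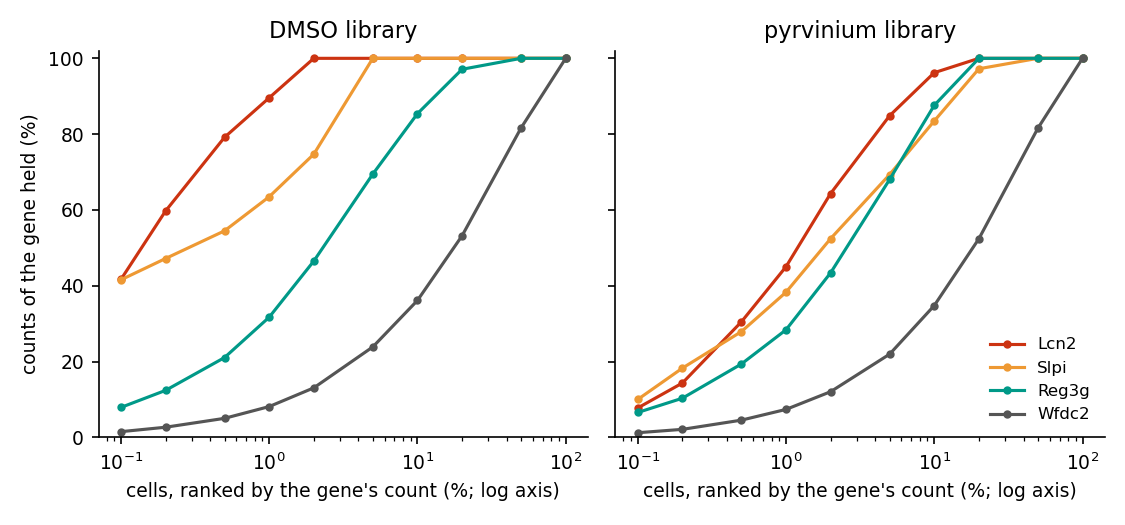
Percent of a gene's counts held by the cells with most of it, against the percent of cells on a log axis, for the DMSO library (left) and the pyrvinium library (right). The top 1% of cells held 89.6% of Lcn2 and 63.5% of Slpi counts with DMSO, 45.0% and 38.3% with pyrvinium, against 8.14% and 7.39% of Wfdc2 counts.

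Leaving out single cells did not reverse a direction. Without the cell of each library with the most Lcn2, its level was 2.53 CPM with DMSO and 12.5 CPM with pyrvinium, 4.95-fold higher, and without the top 3 cells it was 6.06-fold higher. Slpi was 6.21-fold higher without the top cell and 6.85-fold without the top 3. For Lcn2 the top 3 cells thus moved the fold by over 1.5 times, and the ratio over all cells was the smaller one. Reg3g was 3.39-fold lower without the top 3 cells, and the log2 ratio of Wfdc2 was 0.67.

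Cells were grouped into 6 clusters from variable genes, leaving out the 5 genes and all genes of the lists below. Clusters are given by number and leading genes, with no cell type name. Cluster 0 (Mmp7, Nr4a1, Ccn1) had 565 DMSO and 50 pyrvinium cells, and cluster 1 (Mcm7, Fen1, Tyms) 438 and 48. Cluster 3 (Cdc20, Ccnb2, Plk1) had 219 and 94 cells, and cluster 4 (Crct1, Cnfn, Ptgs2) 119 and 407. Cluster 2 (Ccl5, Cited1, Ly6m) had 251 DMSO cells and 1 pyrvinium cell, and cluster 5 (Csk, Slc26a2, Galnt4) had 10 and 254. With 1 library per treatment, a cluster held by 1 library cannot be told apart from that library.

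The clusters with the most Lcn2 differed between the libraries. Among clusters with at least 30 cells of the library, its highest DMSO level was in cluster 0, at 8.87 CPM (7.31 to 10.7), which held 112 of the 144 counts. There 1 cell held 43 counts, and without it the level was 5.47 CPM (4.26 to 6.93), still the highest. Lcn2 was at 0.412 CPM in DMSO cluster 1, 1.74 in cluster 3 and 0.833 in cluster 4, and the 13 counts of cluster 2 came from 1 cell. With pyrvinium it was highest in cluster 3 at 23.7 CPM (19.1 to 29.0), then cluster 5 at 18.6 CPM (16.2 to 21.2) and cluster 4 at 10.6 CPM (9.12 to 12.2). The intervals of clusters 3 and 5 overlapped, and that of cluster 4 lay below both. In cluster 3, however, 1 cell held 39 of the 93 counts, and without it the level was 13.8 CPM (10.4 to 18.04). In cluster 0 it had 3 counts with pyrvinium and in cluster 1 none.

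Slpi was at 13.0 CPM (10.2 to 16.3) in DMSO cluster 2, but 1 cell held 53 of the 74 counts there. Without that cell the level was 3.69 CPM (2.28 to 5.64). DMSO cluster 0 was at 4.52 CPM, with 21 of its 57 counts in 1 cell, and at 2.86 CPM without that cell. The value of 2.86 CPM lay within the interval of cluster 2 without its top cell. With pyrvinium Slpi was highest in cluster 4, at 33.8 CPM (31.1 to 36.6). Its next highest pyrvinium levels, 14.8 CPM in cluster 3 and 11.4 CPM in cluster 0, had overlapping intervals and lay below that of cluster 4. In the 4 clusters where both libraries had 30 cells or more, Slpi was higher with pyrvinium in all 4, with log2 ratios of 1.34 (0.41 to 2.18) in cluster 0, 1.85 in cluster 1, 2.94 in cluster 3 and 3.47 in cluster 4. Over all genes measured within a cluster, 4.93% were called higher in cluster 0, 6.16% in cluster 1, 12.4% in cluster 3 and 7.17% in cluster 4.

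Within the same clusters, Lcn2 had a log2 ratio of 3.76 in cluster 3 and 3.66 in cluster 4, and of -1.96 (-4.26 to -0.38) in cluster 0. The value in cluster 0 rests on 3 pyrvinium counts and that in cluster 4 on 3 DMSO counts. Under the 3 other clusterings tried, the clusters that could be compared held 19, 3 and 14 of the 144 DMSO counts, so the lower value in cluster 0 could not be checked there. Wfdc2 had log2 ratios of 0.81, 0.67 and 0.65 in clusters 0, 1 and 3, but 0.16 in cluster 4, where the DMSO level, 3621 CPM, was the highest of the DMSO clusters. Its lowest level was 1399.9 CPM in DMSO cluster 2.

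Reg3g was unevenly placed over clusters with DMSO and less so with pyrvinium. With DMSO it was at 83.0 CPM (78.0 to 88.1) in cluster 0 and 80.9 CPM (73.7 to 88.6) in cluster 3, which do not differ beyond their intervals, at 22.4 CPM in cluster 1, 7.78 CPM in cluster 4 and 5.95 CPM in cluster 2. Among clusters with at least 30 cells of a library, the highest was 13.9-fold above the lowest with DMSO, and 1.98-fold with pyrvinium. Pyrvinium levels ran from 10.2 CPM (7.27 to 13.9) in cluster 3 to 20.1 CPM (17.6 to 22.9) in cluster 5, which differ beyond their intervals. Pyrvinium cluster 5 nevertheless had the lowest thinned share of cells with Reg3g, 3.54%. The 10 DMSO cells of cluster 5 were too few to enter the DMSO range, with Reg3g at 146 CPM (94.2 to 215). The log2 ratio within clusters was -2.45 in cluster 0, -1.01 in cluster 1, -2.99 in cluster 3 and 0.61 (0.04 to 1.24) in cluster 4. Over all genes measured, 13.3% were called lower in cluster 0, 11.1% in cluster 1, 16.9% in cluster 3 and 22.1% in cluster 4. All 4 counts of Reg3b fell in DMSO cluster 0, where Reg3g was at 83.0 CPM.

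**Figure D4:**
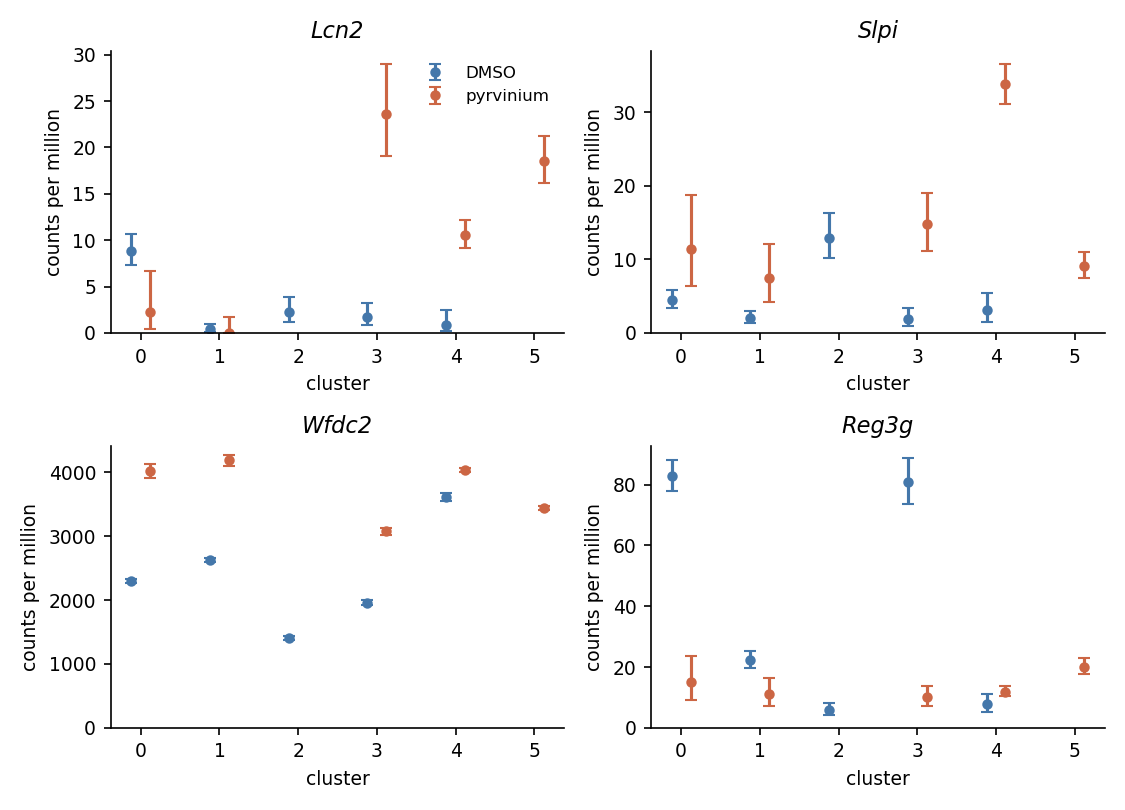
CPM (linear axes from 0) of Lcn2, Slpi, Wfdc2 and Reg3g in each cluster with at least 30 cells of a library, with 95% counting intervals. Slpi is higher with pyrvinium in clusters 0, 1, 3 and 4, and the DMSO levels of Reg3g stand out in clusters 0 and 3 at 83.0 and 80.9 CPM.

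Lcn2 and Slpi were counted in the same cell more often than the product of their single shares. After thinning, 2 DMSO cells held both (0.125%, 0.0151% to 0.450%, product 0.0146%) and 7 pyrvinium cells did (0.820%, 0.330% to 1.68%, product 0.316%). Slpi was counted in 17.9% of pyrvinium cells with Lcn2 and in 6.38% of those without. Without thinning, the shares with both were 0.624% with DMSO (product 0.0973%) and 5.74% with pyrvinium (product 2.78%). Pearson's r between the log counts of Lcn2 and Slpi was 0.30 over 1602 DMSO cells and 0.13 over 854 pyrvinium cells, with Spearman's rho at 0.094 and 0.098. These cells share a library and its free RNA, and r this weak in sparse counts is no finding.

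Lcn2 and Reg3g, which differed in direction between the libraries, were also found together above the product. Both were counted in 6 thinned DMSO cells (0.375%, 0.138% to 0.813%, product 0.107%) and 4 pyrvinium cells (0.468%, 0.128% to 1.19%, product 0.198%). The pyrvinium interval took in the product. Among DMSO clusters with at least 30 cells, both genes had their highest level in cluster 0. For Slpi with Reg3g, 1 thinned DMSO cell (0.0624%, product 0.178%) and 2 pyrvinium cells (0.234%, product 0.299%) held both, and the intervals took in the product. Both thinned cells with Reg3b also held Reg3g. The number of the 5 genes counted per thinned cell reached 3 in 11 DMSO and 10 pyrvinium cells and 4 in 1 pyrvinium cell.

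**Figure D5:**
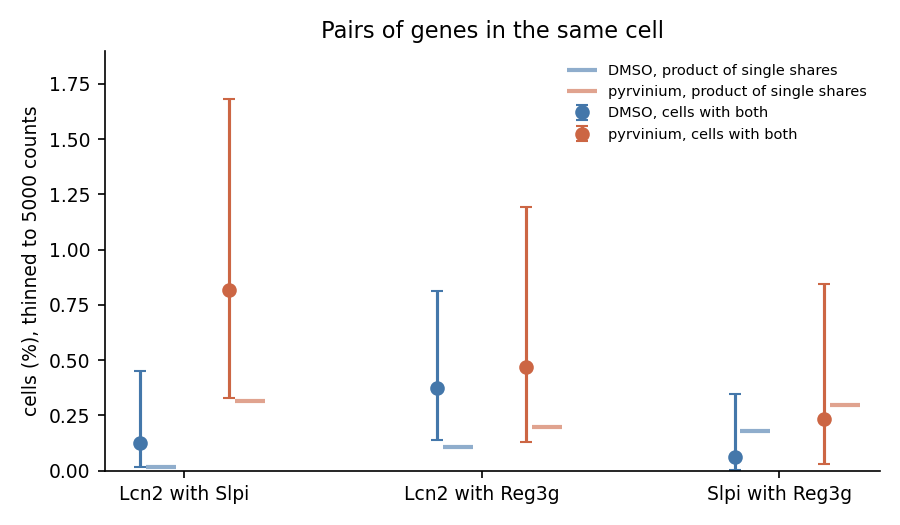
Percent of cells, thinned to 5000 counts, with a count of both genes of a pair (circles, with exact 95% binomial intervals) in the DMSO and pyrvinium libraries, beside the product of the single shares (bars). Lcn2 with Slpi and Lcn2 with Reg3g lie above the product in both libraries, and the intervals of Slpi with Reg3g, and of Lcn2 with Reg3g with pyrvinium, take in the product.

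The genes whose counts per cell were most like each of the 5 were ranked by Pearson's r over thinned cells, within 1 library at a time and among 4057 (DMSO) or 3855 (pyrvinium) genes. For Lcn2 the highest were Itln1 (r 0.18), Mmp7 and Ifitm1 with DMSO and Ifitm1 (r 0.22), Mmp7 and Slc44a3 with pyrvinium, and 3 of the 5 highest were the same in both libraries (Cyba, Ifitm1 and Mmp7). Itln1 encodes intelectin-1, a lectin that binds microbial sugars, and Mmp7 matrilysin, a metalloprotease. For Reg3g they were Selenop (r 0.24), Clu and Trf with DMSO and Mmp7 (r 0.19), Selenop and Trf with pyrvinium, with Selenop and Trf in both. For Wfdc2 they were S100a6 (r 0.37) and Phgr1 with DMSO and Ly6a (r 0.46) and S100a6 with pyrvinium, with Lgals1, Phgr1 and S100a6 in both. For Slpi none of the 5 highest was the same, and the highest r were 0.12 (Azin1) and 0.15 (Prdx6). A ranking for Reg3b would rest on 2 cells. The cells of a library share its free RNA, and the r values for Lcn2, Slpi and Reg3g are too weak in sparse counts to be a finding.

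Levels were also taken by the depth of a cell within each library. From the DMSO cells with the fewest counts to those with the most, in 3 groups of equal size, Lcn2 was at 8.41, 1.87 and 3.06 CPM, and Slpi at 8.41, 7.09 and 2.25 CPM. Single cells carried part of this: without the top cell of each group the DMSO levels were 1.59, 1.28 and 2.34 CPM for Lcn2 and 5.09, 1.87 and 2.04 CPM for Slpi. In the pyrvinium library Lcn2 was at 18.6, 22.0 and 9.10 CPM and Slpi at 19.4, 26.0 and 20.2 CPM. Reg3g was at 63.0, 44.6 and 43.4 CPM with DMSO and 9.62, 14.9 and 15.2 CPM with pyrvinium. In each group these genes kept the direction found over all cells, as did Wfdc2.

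Slpi and Wfdc2 lie near each other on chromosome 2 in the RefSeq gene order, with 7 genes between them. Of those, 4 had enough counts, 1 was higher with pyrvinium (Dbndd2, 22.7 and 47.9 CPM, log2 ratio 1.08) and none was lower: Sdc4 had a log2 ratio of -0.38, Sys1 0.38 and Pigt -0.07. The shares over all genes measured were 7.57% higher and 15.5% lower. Between Reg3b and Reg3g on chromosome 6 lie 4 genes, all of the Reg family, and none had enough counts.

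Among relatives by sequence, Reg3g was the single one of the 7 Reg genes with at least 20 counts. Reg3a and Reg3d were at 0 in both libraries. Of 18 genes on the WAP-domain list that the files hold, 6 had enough counts, with a median log2 ratio of 0.33. Among the 6, 3 were higher (Slpi, Wfdc2 and Wfdc3) and 1 was lower (Wfdc18). Slpi and Wfdc2 were chosen on this contrast and raise this count and median. The other log2 ratios were 1.30 for Wfdc3, -0.02 for Wfdc15b, -0.31 for Wfdc8 and -2.21 for Wfdc18. Of 21 genes of lipocalins and iron handling, 13 had enough counts, with a median of 0.01. Among the 13, 4 were higher, including Lcn2, chosen on this contrast, and 2 were lower. The shares over all genes measured were 7.57% higher and 15.5% lower, with a median log2 ratio of -0.08. The retinol carrier gene Rbp4, itself a lipocalin, was at 78.9 and 163 CPM (log2 ratio 1.05). The ferritin genes Fth1 (1825 and 3047 CPM) and Ftl1 (3655 and 5956 CPM), which store iron, were higher, with log2 ratios of 0.74 and 0.70. Trf, the gene of the iron carrier transferrin, was lower, at 551 and 237 CPM. Slc22a17, a receptor gene for lipocalin-2, was at 0.750 and 0.756 CPM.

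On the antimicrobial list, 18 other genes had enough counts. Of these, 9 were lower, as Reg3g was, 8 were not called and 1 was higher (Zg16), beside 15.5% lower and 7.57% higher over all genes measured. The median log2 ratio of the 18 was -0.60, beside -0.08. Not all of the 9 encode secreted antimicrobials: Duox2, Duoxa2 and Pigr encode membrane proteins. Pglyrp1, which encodes a peptidoglycan recognition protein, was at 1818 and 1079 CPM, the collectin gene Sftpd at 219 and 125 CPM, and Adm, which encodes adrenomedullin, at 32.9 and 12.5 CPM. Of 21 protease inhibitor genes with enough counts, 2 were higher and 4 lower, with a median of -0.03. The 2 higher were Cd109 and Slpi, which was chosen on this contrast. Spink4 was at 15.8 and 4.72 CPM and Serpinb1a, an inhibitor of neutrophil proteases, at 51.0 and 29.1 CPM. The proteases that SLPI inhibits in neutrophils and mast cells, Elane, Ctsg and Cma1, were at 0 in both libraries. Of the 14 proteases listed, 7 had enough counts, 0 were higher and 2 lower (Klk1 and Plat).

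Of the 16 genes listed for the interleukin-22, interleukin-6 and STAT3 axis, which acts upstream of Reg3 genes in gut, 1 was higher. Bcl3 was the 1 lower gene (15.7 and 10.2 CPM). Stat3 itself was at 22.9 and 20.8 CPM and its feedback inhibitor gene Socs3 at 14.01 and 11.8 CPM, neither called, and the interleukin-22 receptor gene Il22ra1 had 11 and 9 counts. On the list for the interleukin-17, NF-kappaB and C/EBP axis, which acts upstream of Lcn2, 24 genes were measured. Of these, 13 were lower, 2 were higher and 9 were not called, with a median of -0.62. Over all genes measured, 15.5% were lower and 7.57% higher, with a median of -0.08. The list also holds targets and feedback genes of the axis, among them Cxcl1, Cxcl5 and Tnfaip3, so the 13 are not all upstream of Lcn2. Nfkbia, which encodes the NF-kappaB inhibitor and is itself an NF-kappaB target, was at 167 and 28.3 CPM (log2 ratio -2.56), and the chemokine gene Cxcl1 at 28.7 and 4.43 CPM. Nfkbiz, the cofactor gene for Lcn2, was at 23.8 and 8.88 CPM (log2 ratio -1.42), lower while Lcn2 was higher. Cebpb was higher (13.4 and 22.5 CPM, log2 ratio 0.75), as was the receptor gene Il17rc (23.9 and 43.2 CPM), and Cebpd was lower (4.40 and 2.19 CPM). Il17ra was at 6.15 and 5.02 CPM and not called. Of 5 genes of the REG receptor and EGFR family list, Egfr was higher (log2 ratio 0.71) and Erbb2 lower (16.1 and 10.2 CPM), and Extl3, a receptor gene for REG proteins, was at 4.38 and 3.75 CPM.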

How the data were processed

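Cells of Meta4 organoids were profiled with PIPseq, per the labels' protocols, and Partek and GRCm39 were named, per the submitters' processing notes. The deposited matrices hold whole-number counts per gene and barcode, made by the authors and not normalized. The aligner, the counter and whether a count is a molecule were not given in the sources used here. A further allele of the genotype and some genes of the lists are not reported here.

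The 5 genes and all lists were chosen with earlier results of these data known. Barcodes counted as cells if they had 1/10 of the count at the 99th percentile among the 2000 deepest barcodes of the library, at least 500 genes and at most 20% mitochondrial counts, which removed 0 barcodes. The libraries held 331629 and 353485 barcodes, of which 12981 sequences occurred in both, with 64212118 and 64412821 counts. Doublets were kept, and an alternative removed the 5% with the highest Scrublet scores. Summed counts gave CPM with exact Poisson intervals and log2 ratios with exact conditional binomial intervals. Shares have exact Clopper-Pearson 95% intervals, and 0 cells were left out by thinning. Clustering used 2000 variable genes z-scored within each library, 30 principal components, 15 neighbours and Leiden resolution 0.5 (scanpy 1.11.5, Python 3.11.15, numpy 2.4.6, scipy 1.17.1). The computation of ratios was checked on simulated counts. Genes named are the 5, up to 5 of each list with the largest log2 ratio whose level reached 10 CPM in either library, 10 upstream genes, and for likeness the 5 with the highest r among genes with at least 20 CPM; Slc22a17, Il22ra1 and others below these limits belong to the upstream genes or complete a count. Neighbouring genes, Clu, Agr2, Ghrl, Wfdc3, Zg16, Cd109 and genes at 0 were named after their values were seen. So were Kcnq1, Pou2f3, Avil, Cdh5, Sprr2a1, Atp4b, Krt5, Duox2, Duoxa2 and Pigr.

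Alternatives were other thresholds, scalings, weights of cells or clusters, subtraction of 10% free RNA, other thinning depths and other clusterings. Leaving out the cells with the most counts, in a library, cluster or depth group, or clusters held by 1 library, was added after seeing the data.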

Additional observations from a re-analysis of the deposited data

Results flagged for a closer look

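Lcn2 had opposite directions in different clusters. Its log2 ratio of pyrvinium over DMSO was 3.76 within cluster 3 and 3.66 within cluster 4, and -1.96 within cluster 0. Without the cell of each library with the most Lcn2 in the cluster, the value in cluster 3 was 3.49. In cluster 0 the pyrvinium cells held 3 counts of Lcn2 and in cluster 4 the DMSO cells held 3, and leaving out the top cell left 1 count in each. The log2 ratios were then -2.83 (-8.15 to -0.30) in cluster 0 and 4.97 (2.47 to 10.3) in cluster 4. Each of these rests on that 1 count. The difference between clusters was not tested.

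Reg3g had a log2 ratio of 0.61 within cluster 4, against -2.45 in cluster 0, -1.01 in cluster 1 and -2.99 in cluster 3. Without the top cells these were 1.46, -2.95, -1.25 and -3.50. In DMSO cluster 4, 119 cells gave a Reg3g level of 7.78 CPM, and 1 of them held 14 of the 28 counts. This difference was not tested either.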

How the results depend on the processing

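None of the 4 log2 ratios reversed under 14 alternatives. They ran from 1.56 to 2.89 for Lcn2, 1.97 to 3.17 for Slpi, 0.54 to 0.77 for Wfdc2 and -2.19 to -1.61 for Reg3g. With equal cluster weights Wfdc2, at 0.54, was under 1.5-fold, and Lcn2 was 1.62, Slpi 2.54 and Reg3g -2.003. With cells in the same range of counts Lcn2 was 2.89 and Wfdc2 0.65. With the higher threshold in both libraries they were 2.40 and 0.66. Both settings leave out the DMSO cell with the most Lcn2, which held 43 counts. Wfdc2 was 0.71 at 1000 counts, 0.70 at 3000 counts, 0.76 without mitochondrial and ribosomal genes and 0.77 by the median of ratios. These scalings put the median of all genes at 0.00. As a mean over cells Slpi was 1.97, Wfdc2 0.70 and Reg3g -1.92. With subtraction of free RNA taken from barcodes of 10 to 100 counts, Slpi was 2.60 and Reg3g -1.92. Without the top cell Lcn2 was 2.31 and Slpi 2.63, and without the top 3 cells 2.60 and 2.78. Without DMSO cluster 2 and pyrvinium cluster 5, the ratios were 1.56 for Lcn2, 3.17 for Slpi, 0.64 for Wfdc2 and -2.19 for Reg3g. Lcn2 was above Slpi where the range of counts was matched (2.89 and 2.36), without that DMSO cell rich in Lcn2. It was also above Slpi as a mean over cells (2.03 and 1.97).

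Shares of cells depend on the thinning. At 2000 counts the DMSO shares were 0.375% for Lcn2, 0.562% for Slpi, 92.5% for Wfdc2 and 5.87% for Reg3g, and the pyrvinium shares 1.76%, 2.69%, 98.7% and 2.46%. At 9000 counts the DMSO shares of Slpi, Wfdc2 and Reg3g were 2.50%, 99.3% and 14.6%, and the pyrvinium shares of Slpi and Reg3g 10.5% and 7.96%. Without thinning they were 2.0% (Lcn2), 4.87% (Slpi), 99.9% (Wfdc2) and 23.4% (Reg3g) with DMSO, and 12.3%, 22.6% and 17.7% for Lcn2, Slpi and Reg3g with pyrvinium.

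At Leiden resolution 0.3, with 2 clusters compared, Slpi was higher in 2, Wfdc2 in 0 and Reg3g in 0, and Lcn2 was lower in 0. At resolution 1.0 Reg3g was higher in 0 clusters and Lcn2 lower in 0. With listed genes among the clustering genes, Slpi was higher in 2 of 3 clusters and Lcn2 lower in 0. In that clustering Reg3g was higher in 1 cluster and lower in 2. The cluster where it was higher had 139 DMSO and 436 pyrvinium cells. Reg3g had 25 and 226 counts there, with a log2 ratio of 1.10 (0.50 to 1.75). Lcn2 could be measured in only 2 clusters each time, and those compared held 19, 3 and 14 of its 144 DMSO counts, so these zeros do not bear on cluster 0. Under both other scalings 1 of the proteases listed was lower, 2 genes of the STAT3 axis were higher and 0 lower, and 0 of the REG receptor list were lower. With at least 100 counts, 0 WAP-domain genes were lower and 0 antimicrobial genes higher. No paired analysis was possible because each treatment has 1 library.

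The counts of Lcn2 and Slpi in the DMSO library, 144 and 178, limit what can be said of single clusters and pairs. Reg3b stayed too low for a ratio under every cell threshold tried. Replicate variation was not measured.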
